A study of Mus musculus with 9 samples.

Results

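The 4 syndecans (Sdc1 to Sdc4) and the 6 glypicans (Gpc1 to Gpc6) of the mouse were followed in capillaries cut from the ossification front (OF) of the femur, the zone below the growth plate where vessels grow in and bone is laid down. The 10 genes were taken by name, as the complete pair of families, from the 39179 genes listed in each library, and 9 of them had enough counts to be among the 13418 genes that could be tested. Gpc5 was the exception, with 3 counts in total over all libraries. RNA came from laser-microdissected single capillaries together with the cells around them, and was compared between 5 libraries from juvenile mice aged 4 weeks and 4 libraries from adult mice aged 12 weeks. All mice were Tg(TIE2GFP)287Sato/J reporter mice on a C57BL/6 background, in which the Tie2 promoter drives GFP in endothelial cells and guided the laser. Each library pooled many cut pieces and holds capillary and perivascular cells together, so a level here belongs to the mixture, and fewer cells of a type cannot be told apart from less RNA per cell. The labels give neither sex nor any batch.

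Syndecans and glypicans are the main cell surface carriers of heparan sulfate, a long sulfated sugar chain that binds growth factors, morphogens, chemokines and matrix proteins. Syndecans are transmembrane proteins with a short cytoplasmic tail that reaches scaffold and cytoskeletal proteins, whereas glypicans are held in the outer leaflet of the membrane by a glycosylphosphatidylinositol anchor. Both present ligands to their receptors or keep them away, and both are known from skeletal growth: loss of GPC3 causes an overgrowth syndrome and loss of GPC6 a short-limb dysplasia in humans.

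The chain is built on serine residues that are followed by glycine, often as repeated serine-glycine pairs. These attachment stretches are shown because they mark the families as heparan sulfate carriers and show how the families differ. The coding sequences were read from the GENCODE annotation of GRCm38, each 5′ to 3′ on the coding strand, with the serine-glycine codon pairs in capitals and the neighbouring codons in lower case.
Gpc6: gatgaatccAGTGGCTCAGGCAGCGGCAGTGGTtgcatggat
Gpc4: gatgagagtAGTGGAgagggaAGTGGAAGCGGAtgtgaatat
Gpc3: ggacttgaaAGTGGAgactgcggt
Sdc1: gacaacttcTCTGGCTCTGGCacaggtgct
Sdc2: tcttctgccTCAGGCTCAGGAgctgatgaa
Sdc3: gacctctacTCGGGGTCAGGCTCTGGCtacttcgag
Sdc4: tttgagctcTCGGGTTCTGGAgatctggat

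In the 5 glypicans Gpc2 to Gpc6 the stretch sat near the end of the coding sequence, from 85.3% along it in Gpc3 to 88.8% in Gpc6. In the syndecans the stretch with the most pairs lay from 14.5% along in Sdc1 to 31.3% in Sdc4, and in all 4 of them the printed window crossed the boundary between exons 2 and 3. At least 2 pairs whose starts are at most 4 codons apart were found in 1505 of 19783 mouse coding sequences (7.61%). The stretches printed here all met this, except that of Gpc3, which has 1 isolated pair at this place. Further pairs lay elsewhere. Gpc3 has a second single pair at codon 508, 87.7% along. Sdc1 has single pairs 66.6% and 69.8% along, and in Sdc3 pairs at codons 311 and 315, from 70.4% along, meet the same rule. These matches describe the letters and do not show that a chain was attached.

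Library totals ran from 4856833 to 7398483 counts in the juvenile and from 5821596 to 8077362 in the adult libraries, so that 3 counts, the lowest level taken as readable, stood for 0.371 to 0.618 CPM (counts scaled to a common library total). This limit covers counting error only. Sums of markers are given in this CPM, whereas log2 CPM below also applies the TMM factor of each library (edgeR's scaling between libraries). All 10 endothelial markers were detected in all 9 libraries, their sum ran from 570.5 to 929 CPM at 4 weeks and from 803 to 1048 CPM at 12 weeks, and 0 of the 10 passed the edgeR test between ages. Osteoblast and osteocyte markers were far more abundant, with 92682 to 109562 CPM in juvenile and 40773 to 63012 CPM in adult libraries, and 4 of 10 were called higher at 4 weeks (Col1a1, Sp7, Ibsp and Dmp1) and 2 higher at 12 weeks (Bglap and Bglap2). All 8 neutrophil markers and all 7 erythroid markers tested were called higher in adult libraries, as was 1 of 3 tested megakaryocyte markers, but 0 of 4 tested B and plasma cell markers. Also called higher in adult libraries were 2 of 7 tested chondrocyte markers, 2 of 7 osteoclast markers and 1 of 7 macrophage markers. Adult library 2 stood apart from the other adults in its neutrophil markers (95.7 CPM, against 3623 to 4632) and its chondrocyte markers (4890 CPM, against 619.9 to 1129). Adult library 4 stood apart in its megakaryocyte markers (4704 CPM, against 64.8 to 648) and its erythroid markers (37661 CPM, against 4279 to 10495). In 2 libraries, both juvenile, Y-linked counts exceeded Xist.

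Between the ages, 1 of the 9 tested members passed edgeR's quasi-likelihood test at an adjusted p under 0.05, and this was Gpc1, which was higher in juvenile mice. Over all 13418 genes tested, 520 passed (3.88%), 267 of them higher at 4 weeks (1.99%) and 253 higher at 12 weeks (1.89%). The other 8 tested members did not pass. Gpc1 was also the 1 member of 9 whose normalised counts did not overlap between the ages, which held for 9.15% of all tested genes (5.07% higher at 4 weeks and 4.08% higher at 12 weeks).

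Gpc1 encodes glypican-1, a glypican of vessels, brain and bone that acts as a co-receptor for heparin-binding growth factors such as FGF2. Its normalised counts (counts divided by a library's scaled size relative to the other libraries) were 8371, 7828, 5093, 7980 and 6838 in juvenile libraries 1 to 5, and 3831, 4438, 3244 and 3749 in adult libraries 1 to 4. The lowest juvenile library, number 3, was still above the highest adult library, number 2. Juvenile libraries averaged 7222 ± 1317 (SD, n = 5), and adult libraries 3816 ± 489 (SD, n = 4). The fitted fold change was 1.89, with a 95% interval of 1.46 to 2.46, or 0.92 on the log2 scale with a standard error of 0.17 and an edgeR adjusted p of 0.0135. The two-sided exact permutation test of log2 CPM gave p = 0.0159, the smallest value that 5 libraries against 4 allow. By mean normalised count Gpc1 ranked 74 of the 13418 genes tested, and 152 by p.

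**Figure D1:**
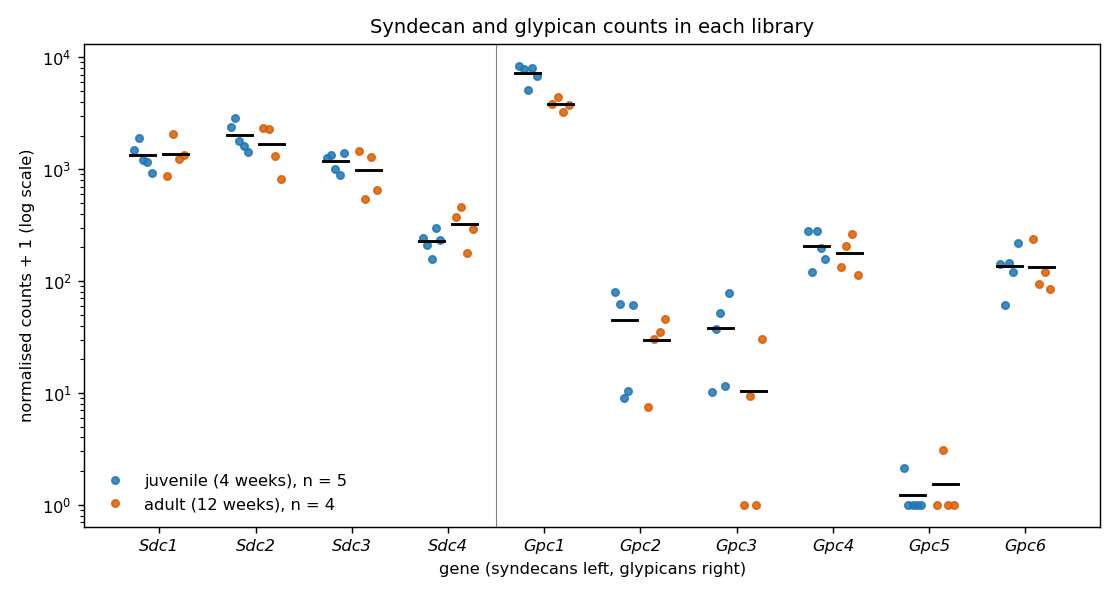
Normalised counts plus 1 on a log axis for each syndecan and glypican, with 1 point per library (blue for 5 juvenile, orange for 4 adult libraries) and a black line at the mean of each age. Gpc1 is the most abundant member, and its 5 juvenile points, from 5093 to 8371, all lie above its 4 adult points, from 3244 to 4438, whereas the ages overlap for every other member.

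The Gpc1 difference was also taken relative to the markers of the captured endothelial cells and of the abundant osteoblast lineage. Relative to the mean log2 CPM of the 10 endothelial markers, Gpc1 was higher in juvenile libraries by 0.94, as against 0.91 for its log2 CPM alone, and the ages again did not overlap (two-sided exact permutation p = 0.0159). Relative to the mean of the 10 osteoblast and osteocyte markers the difference was 0.55, the ages overlapped, and the exact permutation p was 0.0635. Both scales were chosen after the data were seen. The osteoblast and osteocyte list holds 4 genes called higher at 4 weeks and 2 called higher at 12 weeks. Its mean is therefore no measure of the amount of these cells. Summed osteoclast markers (8079 to 12995 CPM at 4 weeks, 15141 to 21279 at 12 weeks), macrophage markers (439 to 784 and 1040 to 1794 CPM) and the neutrophil and erythroid markers were higher in adult libraries. The part of any of these cell types in the Gpc1 difference was not tested. Without adult library 2 the log2 fold change was 0.98 (edgeR adjusted p = 0.0142). Leaving out any 1 library gave 0.83 to 1.02, with edgeR adjusted p from 0.0100 to 0.0421. Without the 2 juvenile libraries in which Y-linked counts exceeded Xist, the log2 fold change was 0.90 and its edgeR adjusted p 0.103, so the call was lost in a comparison that called 73 genes in all.

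Gpc1 lies on chromosome 1 (GRCm38, 92831645 to 92860779, plus strand, ENSMUSG00000034220). Of its exon bases, 977 (18.9%) are shared with Ankmy1 on the opposite strand, and Ankmy1 had 0 counts in every library.

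The 4 syndecans did not pass the test, and their intervals show which sizes of change the data leave. Sdc1, the syndecan of epithelia and plasma cells, had juvenile counts of 1476, 1885, 1218, 1158 and 926 and adult counts of 863, 2049, 1234 and 1349, so that the adult range enclosed the juvenile one. Its log2 fold change was -0.04 (SE 0.26, 95% interval -0.60 to 0.52, edgeR adjusted p = 0.966). The summed B and plasma cell markers had 0 to 22.0 CPM in juvenile libraries and 26.2, 1.20, 89.0 and 109 CPM in adult libraries 1 to 4, and 0 of the 4 tested markers of that list passed. Their part in the Sdc1 level was not tested.

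Sdc2, the syndecan of mesenchymal cells, had 2370, 2870, 1788, 1615 and 1418 normalised counts in the juvenile and 2331, 2288, 1315 and 809.9 in the adult libraries. The ages overlapped widely, with the lowest value in adult library 4, the library with the most megakaryocyte and erythroid markers; their part was not tested. The log2 fold change was 0.26 (SE 0.31, 95% interval -0.40 to 0.92, edgeR adjusted p = 0.760). Sdc3, known from the nervous system and muscle, had 882 to 1394 normalised counts in juvenile libraries and 536, 650.3, 1273 and 1438 in adult libraries 2, 4, 3 and 1, so the adults fell into a low and a high pair that enclosed the juvenile range. Its log2 fold change was 0.27 (SE 0.29, 95% interval -0.35 to 0.88, edgeR adjusted p = 0.724). Within the Sdc3 exons lies the antisense gene Gm26716 (415 shared bases, 6.9% of the Sdc3 exons), which had 262 to 750 counts per library; the kit does not keep strand, so reads from that stretch cannot be assigned with certainty.

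Sdc4, a broadly expressed syndecan of focal adhesions that binds protein kinase C alpha, did not pass either. Its normalised counts were 240.1, 208, 155, 297 and 234 in the juvenile and 371, 462, 177 and 292 in the adult libraries. Of the 4 adult values, 2 lay above all juvenile ones. The log2 fold change was -0.52 (SE 0.31, 95% interval -1.19 to 0.15, edgeR adjusted p = 0.445). With 1 library left out it ran from -0.32 without adult library 2, the highest (edgeR adjusted p = 0.682), to -0.74 without adult library 3, the lowest adult (edgeR adjusted p = 0.206).

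Among the remaining glypicans, Gpc2, Gpc4 and Gpc6 had counts in every library, whereas Gpc3 and Gpc5 were at 0 in some. Gpc4, a glypican of Wnt and growth factor signalling, had 119 to 279 normalised counts in juvenile and 113 to 262 in adult libraries, and a log2 fold change of 0.21 (95% interval -0.60 to 1.01, edgeR adjusted p = 0.860). Gpc6, which acts in growth plate hedgehog signalling, had 60.6 to 219.5 and 84.1 to 235, with a log2 fold change of 0.04 (95% interval -0.96 to 1.03, edgeR adjusted p = 0.985). For both genes the age ranges coincided almost fully, and a 2-fold rise at 4 weeks remained inside both intervals.

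Gpc3, which restrains hedgehog signalling and body growth, had 9.10, 36.2, 50.8, 10.6 and 77.2 normalised counts in the juvenile libraries and 0, 8.39, 0 and 29.1 in the adult libraries. It was detected in 5 of 5 juvenile and 2 of 4 adult libraries, and adult library 4 lay above 2 of the juvenile libraries. The log2 fold change was 1.96 with a wide interval of -0.98 to 4.93 (edgeR adjusted p = 0.529), and the two-sided exact permutation test gave p = 0.0635. With 1 library left out it ran from 1.50 to 3.71, the highest value without adult library 4 (edgeR adjusted p = 0.251). Gpc2, the glypican of developing neurons, ranged from 8.01 to 78.5 in juvenile and from 6.53 to 44.8 in adult libraries, with a log2 fold change of 0.60 (95% interval -1.32 to 2.52, edgeR adjusted p = 0.820). The annotation used here places Gm43720 on the same strand over 2376 bases (55.6%) of the Gpc2 exons. Gm43720 is not among the genes listed in the libraries. Whether its reads entered the counts of Gpc2 was not tested, so these counts are uncertain. Gpc5 had 1 count in juvenile library 1, 2 counts in adult library 2 and 0 in the other 7 libraries, and was not tested.

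**Figure D2:**
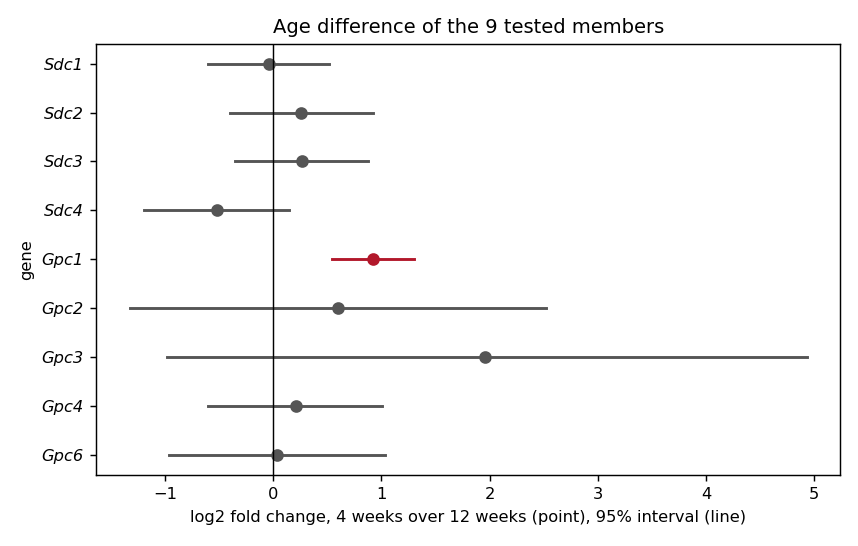
Log2 fold change at 4 weeks over 12 weeks for the 9 tested members (points) with 95% intervals from edgeR (lines), in red for an adjusted p under 0.05. The Gpc1 interval, 0.54 to 1.30, lies to the right of 0, while the intervals of the other 8 members include 0 and are widest for Gpc3 and Gpc2, the genes with the fewest counts.

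To compare levels between genes, normalised counts were divided by exon length in kb. On this scale Gpc1 was the highest member at both ages, with 1400 ± 255 (SD, n = 5) at 4 weeks and 739.6 ± 94.9 (SD, n = 4) at 12 weeks, and it stood above Sdc2, the next in order, in 9 of 9 libraries. Sdc2 had 571 ± 169 and 478 ± 212, and Sdc1 had 349.9 ± 96.0 and 361 ± 130.1. Sdc2 exceeded Sdc1 in 8 of 9 libraries, in all 5 juvenile and 3 of 4 adult libraries, although the ranges of both genes overlapped across libraries at both ages.

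Sdc3 followed with 196 ± 36.9 and 163 ± 74.8 normalised counts per kb. It was below Sdc1 in all juvenile libraries and in 3 of 4 adult libraries, and above Sdc4 in all juvenile but only 2 of 4 adult libraries. Sdc4 (89.0 ± 20.3 and 128 ± 47.5) and Gpc4 (77.5 ± 27.1 and 67.2 ± 25.7) overlapped at both ages and came in this order in 6 of 9 libraries. Gpc4 was above Gpc6 in 9 of 9 libraries, with Gpc6 at 21.3 ± 8.88 and 20.7 ± 10.9. Gpc3 and Gpc2 had means between 3.48 and 13.7 and changed places between the ages, with overlapping ranges at both. Where genes of one family lie side by side, levels still differed: Gpc4 and Gpc3 are 107 kb apart on chromosome X, and Gpc5 and Gpc6 are 400.1 kb apart on chromosome 14.

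Gpc1 made up most of the glypican signal, with 91.6 ± 3.11% of the family per kb in juvenile and 88.1 ± 3.22% in adult libraries. Syndecan signal was more evenly divided. Sdc2 held 46.8%, Sdc1 28.8%, Sdc3 16.7% and Sdc4 7.72% of the family per kb on average at 4 weeks. At 12 weeks the mean shares were 40.7%, 32.9%, 15.0% and 11.3%.

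The glypican share of all 10 members per kb was 56.5%, 49.8%, 51.8%, 61.6% and 60.1% in juvenile libraries 1 to 5, and 39.5%, 39.8%, 43.5% and 49.9% in adult libraries 1 to 4. Adult library 4 and juvenile library 2 met at the border, so the ages overlapped. As Gpc1 dominates the family, these shares largely restate the Gpc1 difference. The summed syndecans were 4744 ± 1039 normalised counts at 4 weeks and 4359 ± 1013 at 12 weeks, a difference in mean log2 level of 0.13 that was -0.04 when libraries were scaled by their totals alone. The ratio of Gpc1 to the summed syndecans per kb was 0.936 to 1.51 in juvenile and 0.583 to 0.901 in adult libraries, and no adult library reached the lowest juvenile value.

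The adult libraries differed more among themselves than the juvenile ones in how the main syndecans were balanced. The ratio of Sdc1 to Sdc2 per kb was 0.577, 0.608, 0.631, 0.664 and 0.605 in the juvenile libraries. In adult libraries 1 to 4 it was 0.343, 0.829, 0.869 and 1.54. All 4 adult values lay outside the juvenile range, 1 below it and 3 above it. A chi-square of raw counts summed over genes was also larger for pairs of adult libraries (66.5 to 90.8 per degree of freedom) than for pairs of juvenile libraries (16.9 to 34.6). That sum grows with library depth and is weighted to the most abundant genes. It therefore cannot show whether the wider adult spread was particular to Sdc1 and Sdc2. The ratios are a description of 9 libraries, and no test of the spread was made.

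**Figure D3:**
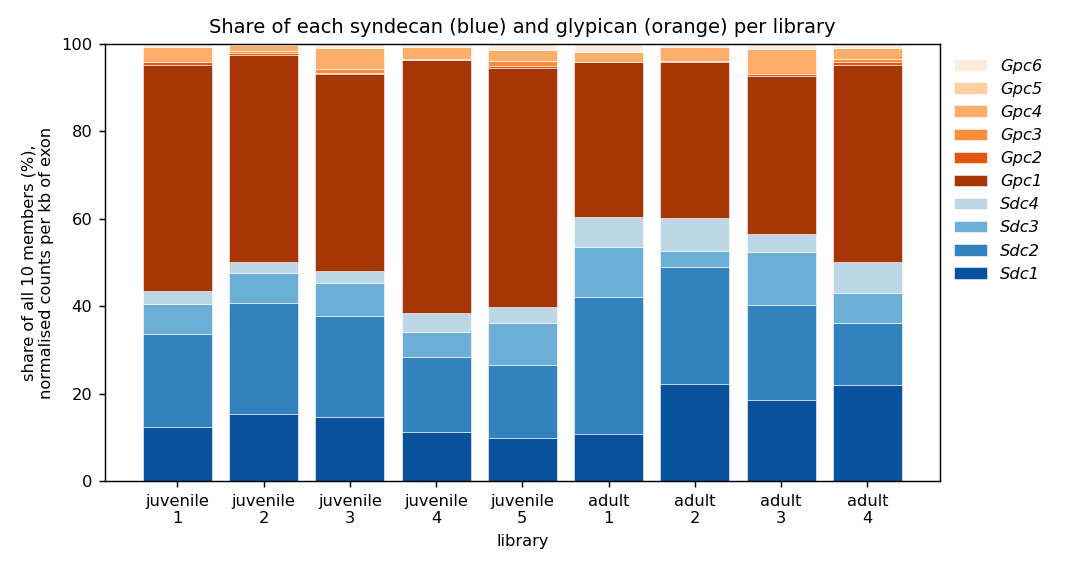
Share of each member in the summed normalised counts per kb of all 10 members (vertical axis, percent), with 1 bar per library; syndecans are blue and glypicans orange. Gpc1 takes the largest piece of every bar, and the glypicans together run from 49.8% to 61.6% in juvenile and from 39.5% to 49.9% in adult libraries.

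The genes whose pattern over the 9 libraries was most like that of Gpc1 were found by the root mean square difference of log2 CPM after centring each gene. The nearest was Ttc39b, a tetratricopeptide repeat gene, at 0.151, followed by Ap4m1, a subunit of an adaptor complex for vesicle traffic, at 0.171 and Cd59a, a glycosylphosphatidylinositol-anchored inhibitor of complement, at 0.190. The median over all tested genes was 0.834. By the mean absolute difference Ttc39b and Ap4m1 remained the nearest and Cd59a ranked 5. Between ages, Ttc39b and Ap4m1 did not pass (edgeR adjusted p = 0.113 and 0.299), while Cd59a did (edgeR adjusted p = 0.0229). Like Gpc1, all 3 genes had lower normalised counts in juvenile library 3 than in any other juvenile library. This likeness follows from how the 3 genes were picked and is no separate result.

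**Figure D4:**
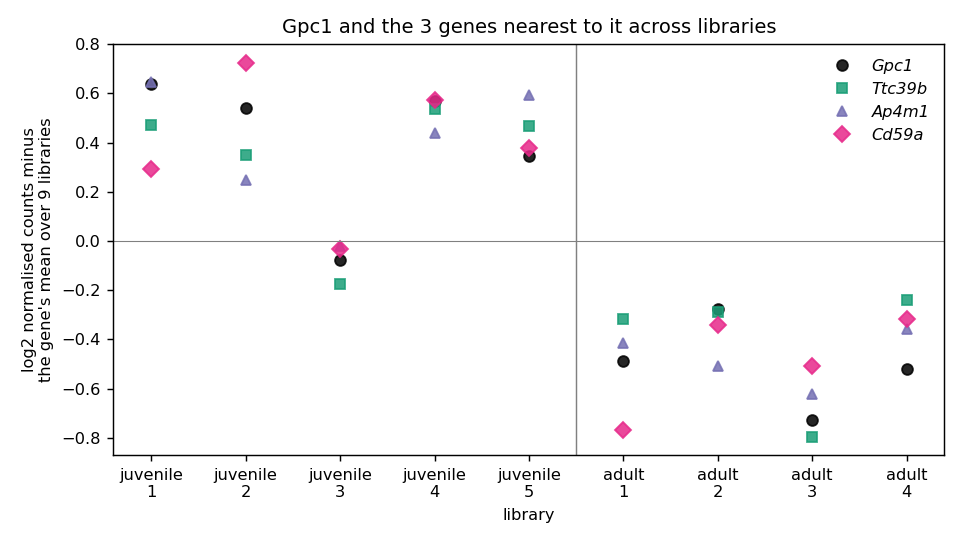
Log2 normalised counts of Gpc1, Ttc39b, Ap4m1 and Cd59a in each library, each gene centred on its mean over 9 libraries. The 4 genes run close together because Ttc39b, Ap4m1 and Cd59a were picked for their closeness to Gpc1 over these libraries. Juvenile library 3 is the lowest of the juvenile libraries for each gene, and all adult values lie below 0. Gpc1 and Cd59a passed the test between ages, and Ttc39b and Ap4m1 did not.

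The machinery that builds, modifies and uses the heparan sulfate chains was read from lists of genes. Each list is described by its counts and median beside the same over all tested genes. Over all tested genes the median log2 fold change was -0.01, 49.5% were positive and 3.88% passed. Chain synthesis was covered by 13 genes, and all 13 were tested. Of these, 1 passed (7.69%), namely Ugdh, and it was higher at 4 weeks. The median log2 fold change was 0.67 and the estimate was positive for all 13, from 0.04 for B3gat3 to 1.42 for Pxylp1. However, 12 of the 13 did not pass, and only 3 had an unadjusted edgeR p under 0.05. Signs of estimates near 0 depend on the scaling. Library totals alone moved the summed syndecan difference from 0.13 to -0.04, and that scaling was not run for this list. In the lists below, estimates were positive for 8 of 14 sulfation genes and 11 of 14 editing and cleavage genes. They were positive for 2 of 8 syndecan partners, 4 of 8 other core proteins and 13 of 20 ligands.

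Ugdh makes UDP-glucuronic acid, a building block of the chain and of other glycosaminoglycans. It had 988, 961, 986, 1501 and 964 normalised counts in the juvenile and 691, 678, 493 and 366 in the adult libraries, which did not overlap. Its fold change was 1.94 (log2 0.96, SE 0.23, edgeR adjusted p = 0.0391). It stood close to the threshold: with any 1 library left out, the log2 fold change was 0.78 to 1.06, and it remained called in 2 of 9 such fits, those without adult library 1 or adult library 2. Pxylp1, a phosphatase that removes phosphate from xylose so that the chain can be extended, had 109 to 513 normalised counts in juvenile and 43.5 to 142 in adult libraries, which overlapped (log2 fold change 1.42, edgeR adjusted p = 0.117).

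The polymerases themselves, Ext1 and Ext2, which were named after their values were seen, had log2 fold changes of 0.05 (95% interval -0.37 to 0.47) and 0.12 (95% interval -0.30 to 0.53), with edgeR adjusted p of 0.947 and 0.840. They were among the best measured genes of the list, at means of 706 and 684 normalised counts in adult libraries.

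Sulfation, which sets what the chain binds, was represented by 14 tested genes of 22. By edgeR 0 of these 14 passed, and 2 had an unadjusted p under 0.05, as did 17.3% of all tested genes. The median log2 fold change was 0.12. With DESeq2, 1 gene of the list passed, and with limma voom 0. The genes with the smallest p were Bpnt2 and Slc35b2. Bpnt2, which clears a by-product of sulfation in the Golgi, had 485 to 801 normalised counts in juvenile and 271 to 599 in adult libraries (log2 fold change 0.82, edgeR adjusted p = 0.102). Slc35b2, the Golgi transporter of the sulfate donor, had 797 to 1221 and 604 to 791, thus without overlap, but a log2 fold change of 0.46 did not pass (edgeR adjusted p = 0.192).

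Enzymes that edit the chain or cleave the core proteins included 14 tested genes of 17. Of these, 2 passed (14.3%) and both were higher at 4 weeks, and the median log2 fold change of the list was 0.46. Mmp2, gelatinase A, had 5070, 4682, 4687, 5155 and 4480 normalised counts in the juvenile and 1750, 2416, 1546 and 1466 in the adult libraries, a fold change of 2.68 (log2 1.42, SE 0.17, edgeR adjusted p = 0.00109). The proprotein convertase Pcsk6 had 2046 to 2446 in juvenile and 883 to 1271 in adult libraries, a fold change of 2.11 (log2 1.08, SE 0.16, edgeR adjusted p = 0.00382). The ages were clearly apart for both genes. Mmp2 and Pcsk6 have many other substrates, and the counts do not show which proteins were cut.

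Of the proteins that bind the cytoplasmic tails of syndecans, 8 of 9 were tested and 0 passed by edgeR, with 0 at an unadjusted p under 0.05. DESeq2 and limma voom also called 0 of them, and the median log2 fold change was -0.17. The smallest p belonged to Tiam1, an activator of the GTPase Rac, with 25.9 to 46.6 normalised counts in juvenile and 41.4 to 94.0 in adult libraries (log2 fold change -1.12, edgeR adjusted p = 0.355). Cask, a membrane scaffold, followed with 162 to 238 and 71.4 to 195 (log2 fold change 0.65, edgeR adjusted p = 0.387).

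**Figure D5:**
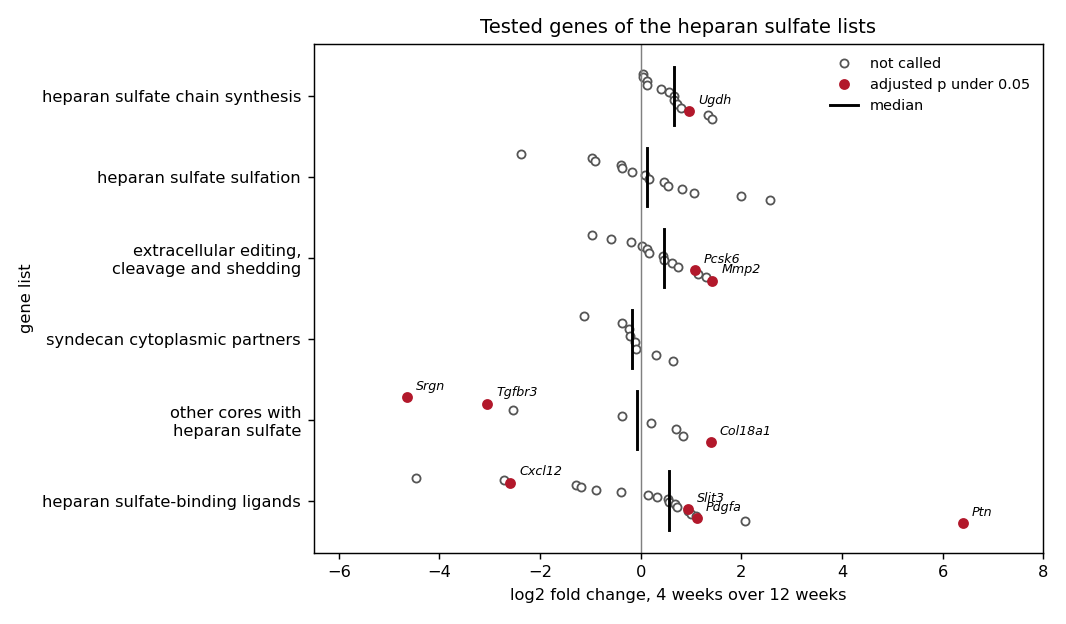
Log2 fold change at 4 weeks over 12 weeks of every tested gene in 6 lists related to heparan sulfate (horizontal axis), with called genes in red and named, other genes as open circles and the median of each list as a black line. All 13 chain synthesis genes lie to the right of 0, the nearest at 0.04, and 12 of them did not pass. Srgn, Tgfbr3 and Cxcl12 are the called genes to the left of 0.

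Other core proteins that can carry heparan sulfate went in different directions, with 1 gene higher at 4 weeks and 2 higher at 12 weeks among 8 tested of 10 (37.5% called). Col18a1, a basement membrane collagen, had 916, 974, 582, 381 and 575 normalised counts in the juvenile and 327, 238, 249 and 232 in the adult libraries, a fold change of 2.62 (log2 1.39, edgeR adjusted p = 0.0186). It remained called in 7 of 9 fits with 1 library left out, and not without adult library 3 or adult library 4 (edgeR adjusted p = 0.0503 and 0.0535). It was also not called with limma voom (adjusted p = 0.0815). Tgfbr3, the TGF-beta co-receptor betaglycan, had 28.9 to 101 in juvenile and 267 to 605 in adult libraries, 8.28-fold higher in adults (edgeR adjusted p = 0.00299).

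Srgn encodes serglycin, the core protein of secretory granules in blood cells. Its normalised counts were 25.0, 37.1, 72.1, 21.2 and 33.3 in the juvenile and 1140, 413, 1021 and 1187 in the adult libraries, 24.98-fold higher in adults (edgeR adjusted p = 0.000159). Adult library 2, the lowest adult for Srgn, was also the lowest for the summed neutrophil markers, which ran from 5.78 to 58.3 CPM in juvenile and from 95.7 to 4632 CPM in adult libraries. The part of these cells in the Srgn difference was not tested.

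Among secreted ligands that bind heparan sulfate, 20 of 26 were tested and 4 passed, 3 higher at 4 weeks and 1 higher at 12 weeks, with a median log2 fold change of 0.56. Pdgfa, a platelet-derived growth factor chain, had 1824 to 3019 normalised counts in juvenile and 985 to 1234 in adult libraries, a fold change of 2.17 (edgeR adjusted p = 0.00535). Slit3, a guidance ligand that binds glypican-1, had 431 to 646 and 233 to 359.8, a fold change of 1.92 (edgeR adjusted p = 0.0348), and remained called in 2 of 9 fits with 1 library left out, those without juvenile library 1 or adult library 1. Ptn, pleiotrophin, a heparin-binding cytokine of bone and brain, had 88.7, 126, 220.4, 123 and 81.1 in the juvenile libraries, whereas it was at 6.29 in adult library 2 and at 0 in the other 3 adult libraries. Ptn passed the count filter only through its juvenile libraries, and limma voom did not call it (adjusted p = 0.0529). Its fitted log2 fold change was 6.40 (edgeR adjusted p = 0.0121). This value depends on adult library 2, the only adult library with Ptn counts, and gives no size. It was 10.03 without adult library 2, and 5.97 to 5.98 without any other adult library.

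Cxcl12, a chemokine that is held on heparan sulfate and keeps haematopoietic cells in the marrow, went the other way. Its normalised counts were 567, 716, 948, 447 and 422 in the juvenile and 4047, 1206, 4240 and 5463 in the adult libraries, 6.03-fold higher in adults (edgeR adjusted p = 0.00283). The summed markers of adipogenic marrow stroma, a main source of this chemokine in marrow, were 219 to 369 CPM at 4 weeks and 240.3 to 403 CPM at 12 weeks, and of its 6 tested genes only Lepr was called, which was higher at 4 weeks. Adult library 2, the lowest adult for Cxcl12, was also the lowest adult for neutrophil markers, as for Srgn. The part of cell mixture in the Cxcl12 difference was not tested.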

How the data were processed

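RNA was measured in 9 libraries, 5 at 4 weeks and 4 at 12 weeks. The authors amplified poly-A RNA with a SMART-Seq v4 kit, which does not keep strand, and per the labels used TopHat2, Bowtie2 and featureCounts with GRCm38/mm10; versions, strand setting and annotation release are not given in the sources used here. The deposited values are whole-number counts per Ensembl gene, without normalisation. Symbols, exon lengths and sequences came from GENCODE M21, in which 96.2% of the identifiers matched. The attachment stretch of 1 glypican is not reported here.

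The age comparison used edgeR 4.0.16 in R 4.3.3 (filterByExpr, TMM, quasi-likelihood F test, age as the only term, Benjamini-Hochberg adjustment over 13418 genes, threshold 0.05). The standard error is the log2 fold change divided by the root of F. Normalised counts are counts divided by TMM-scaled library size relative to the geometric mean. Log2 CPM used the same TMM-scaled sizes and a prior count of 2. The CPM of marker sums and of the 3-count limit used library totals alone. TMM factors were 0.9147 to 0.9708 in juvenile and 1.033 to 1.119 in adult libraries. Single values were compared with exact permutation tests (scipy 1.17.1). The scripts were tested on simulated data. Libraries of an age were compared in 16 pairs and none were copies (smallest chi-square per degree of freedom 16.9). P-values set the age difference against the spread between these libraries within an age.

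Alternatives were DESeq2's size factors, the upper quartile, DESeq2 1.42.0, limma 3.58.1 voom, other count filters, a replicate block, thinned counts, libraries left out by sex-linked counts, and each library left out. Named genes were all members, the called genes of each list (or the 2 with the smallest p where fewer than 2 passed), and the 3 genes nearest to each called member. Markers came from lists of 13 cell types. The members and lists were chosen with earlier results of these data known. Figures were drawn with matplotlib 3.10.9.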

Additional observations from a re-analysis of the deposited data

How the results depend on the processing

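Gpc1 kept its direction in all 18 alternative fits and its call in 16 of them. It remained called in 7 of 9 other fits (log2 fold change 0.85 to 0.92) and in 9 of 9 fits with 1 library left out. The exceptions were the replicate block and the subset without the 2 juvenile libraries with more Y-linked than Xist counts. Same-numbered libraries came from different mice and did not deviate together (correlations of 0.00614, -0.0159, 0.00603 and 0.0154 for numbers 1 to 4). These correlations cannot exclude a shared batch, and the labels give none. With the replicate block, Gpc1 had a log2 fold change of 0.92 and an edgeR adjusted p of 0.0555, 0 members, 0 chain synthesis genes and 0 ligands were called, and 89 genes in all, and Col18a1 was lost (edgeR adjusted p = 0.0764). In the subset by sex-linked counts, 0 members, 0 chain synthesis genes and 0 ligands passed, and 73 genes in all. DESeq2 called 1490 genes, 2 of chain synthesis and 1 of sulfation. Without a filter on low counts, 0 chain synthesis genes passed. With 1 library left out, 262 to 651 genes in all were called, 0 to 1 of chain synthesis and 0 to 1 of sulfation. DESeq2's size factors and the upper quartile moved the median over all genes by -0.02 and 0.01 in log2. Scaling by library totals alone moved the summed syndecan difference from 0.13 to -0.04 and the summed glypican difference from 0.86 to 0.70; its median over all genes was not computed. Of the 8 members not called, Sdc2, Sdc3, Sdc4, Gpc3 and Gpc4 kept their sign in the fits run, and Sdc1, Gpc2 and Gpc6 did not. Sdc1 turned to 0.10 with the replicate block, to 0.15 in the subset by sex-linked counts and to 0.00, 0.06 and 0.19 without juvenile library 4, juvenile library 5 and adult library 2, and its range with 1 library left out was -0.23 to 0.19. Gpc2 turned to -0.03 with voom and to -0.04 with the replicate block. Gpc6 turned to -0.15 with the block and to -0.21 in the subset, and with 1 library left out it ran from -0.20 to 0.45, below 0 without juvenile library 5 (-0.20) or adult libraries 2, 3 or 4 (-0.12, -0.03 and -0.15). Relative to osteoblast and osteocyte markers, an alternative added after seeing the data, the Gpc1 difference was 0.55 (two-sided exact permutation p = 0.0635). The cause of these changes was not tested. Counts were 6 to 69 per library for Gpc2, 0 to 58 for Gpc3 and 0 to 2 for Gpc5, and how far depth or the spread between libraries widens their intervals was not separated. With 5 libraries against 4, a two-sided exact permutation p cannot fall below 0.0159.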
